A study of Homo sapiens with 12 samples.

Results

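The 9 genes described here encode the receptor chains, Janus kinases and ISGF3-specific subunits of the interferon pathway: IFNAR1, IFNAR2, IFNGR1, IFNGR2, IFNLR1, JAK1, TYK2, STAT2 and IRF9. They were chosen by name for their place in the pathway, by a rule that uses no measured value but was written with earlier results of these data known, and they are 9 of the 58288 genes in the expression table. RNA-Seq was done on FaDu cells, an established line from a human squamous cell carcinoma of the hypopharynx, a head and neck cancer (HNSCC). The STING KO cells expressed Cas9 and a single gRNA against STING (STING gRNA 2), and the control cells, called STING WT, expressed Cas9 and a non-targeting gRNA (non-targeting gRNA 2). Both had been transduced with lentivirus and selected with puromycin, and whether each was a clone or a pool is not given in the sources used here. Each was left unirradiated (0Gy) or given 4 daily fractions of 2 Gy (RT), with 3 libraries in each of the 4 groups. The time between the last fraction and RNA collection is not given in the sources used here.

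IRF9 was the member that differed most between STING WT and STING KO cells. Its RNA was 2.36-fold lower in STING KO cells without radiation and 4.42-fold lower after radiation, by the ratio of group means. STAT2, the protein partner of IRF9, had means 19.7% and 23.8% lower in STING KO cells, and passed the test only after radiation, a call lost in 16 of 20 alternatives. The direct test of the difference between the radiation effects called neither IRF9 (limma adjusted p = 0.632) nor STAT2 (limma adjusted p = 0.95). None of the 5 receptor chains, JAK1 or TYK2 passed the test in any comparison.

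Interferons signal through paired receptor chains, each pair bound to 2 Janus kinases. IFNAR1 and IFNAR2 form the type I receptor, which carries TYK2 and JAK1. IFNGR1 and IFNGR2 form the type II receptor for interferon gamma, and IFNLR1 pairs with the shared chain IL10RB to bind the type III interferons, the interferon lambdas that act mainly on epithelial cells. Type I and type III receptors activate STAT2, which joins IRF9 in the transcription factor ISGF3. ISGF3 enters the nucleus and binds a DNA element called the ISRE in front of interferon-stimulated genes, and the genes for STAT2 and IRF9 are themselves known interferon-stimulated genes. Interferon gamma acts instead mainly through an element called GAS.

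Values are TPM, a measure of each transcript's share of all transcripts that the authors deposited for each library and that is corrected for transcript length, so levels of different genes can be set side by side. TPM keeps no read depth, so the depth behind each value is unknown, but between 14860 and 15292 genes reached a TPM of at least 1 in each library. TMEM173, the gene for STING, was at 21.1 to 26.1 TPM in the 6 STING WT libraries and 5.18 to 7.41 TPM in the 6 STING KO libraries (exact two-sided permutation p = 0.1 in each arm, the smallest that 3 libraries against 3 can give). All 7 squamous epithelial markers examined, such as KRT5, averaged at least 1 TPM, and their summed level was 3164 to 3532 TPM in unirradiated STING WT and 3812 to 5550 TPM in unirradiated STING KO libraries. After radiation the sums were 2638 to 3159 TPM in STING WT and 3462 to 4331 TPM in STING KO libraries, and the part of this difference in the results below was not tested. Of 5 fibroblast, 4 leukocyte and 3 endothelial markers, 1, 1 and 2 averaged at least 1 TPM over the 12 libraries. The sums of all markers of each type were 6.4 to 9.37, 14.7 to 31.2 and 11.5 to 23.9 TPM. The leukocyte marker MS4A1 was at 0 in all 12 libraries. In bulk RNA, fewer cells of a type and less RNA per cell cannot be told apart. The labels do not say whether the 3 libraries of a group came from separate cultures. Each p-value thus sets a difference against a spread between libraries that may be technical, and in the limma fit that spread was estimated over all 4 groups.

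Promoter windows, from 250 bases before to 50 bases after a transcription start (RefSeq, GRCh38.p14), were found for 8 of the 9 members, in 12 windows, and IFNAR2 was not matched. They were searched on both strands for the ISRE core, which is GAAA repeated after a spacer of 2 bases, and for the GAS element, TTCNNNGAA, which reads the same on both strands. The windows of IRF9 (chr14:24161015-24161314, plus strand) and STAT2 (chr12:56360058-56360357, minus strand) are shown because these were the members called lower in STING KO cells in at least 1 comparison. Capitals mark the GAS match.
IRF9: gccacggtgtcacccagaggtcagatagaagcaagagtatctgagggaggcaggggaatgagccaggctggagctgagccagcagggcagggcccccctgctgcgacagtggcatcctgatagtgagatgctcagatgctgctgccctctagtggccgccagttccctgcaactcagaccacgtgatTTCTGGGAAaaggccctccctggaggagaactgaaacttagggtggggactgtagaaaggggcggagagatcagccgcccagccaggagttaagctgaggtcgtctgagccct
STAT2: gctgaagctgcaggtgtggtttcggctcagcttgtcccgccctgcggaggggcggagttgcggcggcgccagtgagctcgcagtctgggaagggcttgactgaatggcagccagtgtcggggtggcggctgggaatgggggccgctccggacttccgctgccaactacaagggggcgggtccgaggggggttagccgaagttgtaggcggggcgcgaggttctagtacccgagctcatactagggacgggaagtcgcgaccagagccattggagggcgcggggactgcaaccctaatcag
No member's window held the ISRE core, which was present in 3.57% of 35116 windows, in 4.38% of genes with a window and in 21 of the 28 matched genes (75.0%) on a list of ISGF3 targets. The IRF9 window held the GAS letters as TTCTGGGAA, with its first base at position -63 from the start. The IFNLR1 window held them as TTCCGGGAA at position -238, and no other member had a match, so 2 of 8 matched members held GAS letters. These letters were in 7.66% of windows, in 9.38% of genes with a window and in 10 of the 28 matched ISGF3 targets (35.7%). A match of letters is a description and not a binding site, and no match says only that these letters were not in this window.

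In unirradiated STING WT cells, the members ranged over more than an order of magnitude in TPM. JAK1 was highest at 118.8 ± 1.70 TPM (mean ± SD, n = 3 for each value), followed by IFNAR1 at 66.9 ± 1.77 TPM. The next 5 members had overlapping libraries from one to the next in order, namely IFNGR1 at 57.0 ± 4.59, IFNGR2 at 52.2 ± 9.85, IRF9 at 48.6 ± 7.50, TYK2 at 44.2 ± 1.19 and STAT2 at 44.2 ± 3.54 TPM. IFNAR2 was lower at 20.5 ± 0.722 TPM, and IFNLR1 was lowest at 4.42 ± 0.801 TPM. JAK1, IFNAR1, IFNAR2 and IFNLR1 each stood clear of their neighbours in this order. Across all 12 libraries the highest value was 1.13 times the lowest for JAK1 and 1.15 times for IFNAR1, against 1.498 times for IFNLR1, 1.71 times for STAT2, 1.77 times for IFNGR2 and 5.93 times for IRF9. In STING KO cells IRF9 was at 20.6 ± 2.26 TPM without radiation and 18.3 ± 4.17 TPM with it, close to IFNAR2 at 19.3 ± 1.64 and 20.6 ± 0.381 TPM, and its libraries overlapped those of IFNAR2 in both arms.

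**Figure D1:**
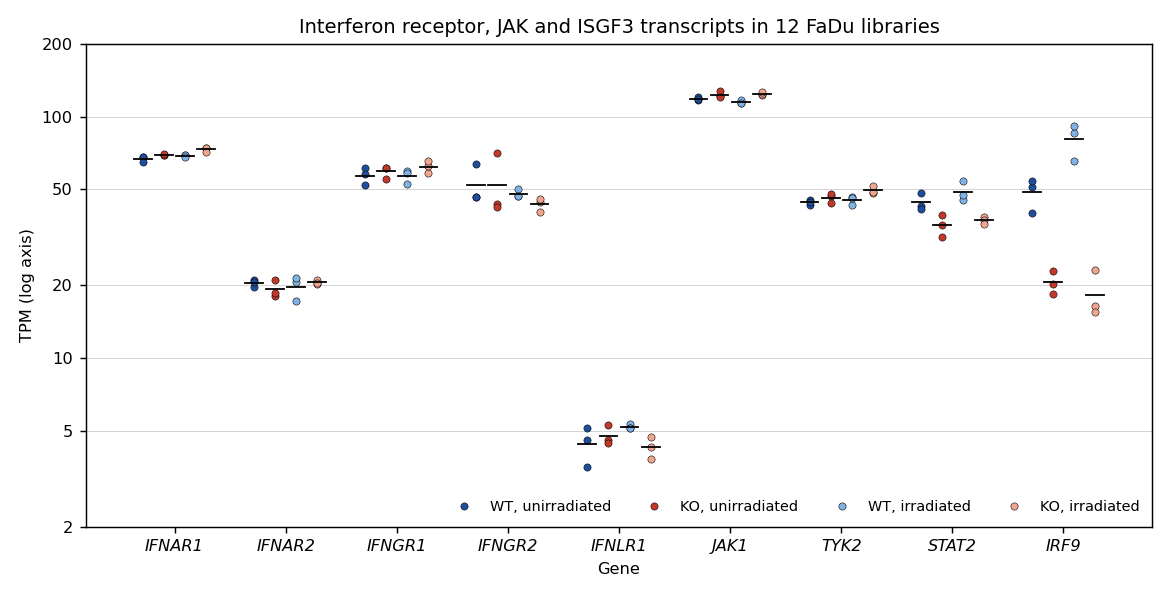
TPM of the 9 members on a log axis, with a point for each of 3 libraries per group and a bar at the group mean. IRF9 spans 15.4 to 91.7 TPM, with all STING WT libraries above all STING KO libraries. STAT2 also separates in this direction, over a smaller range. JAK1 separates in the other direction and by little, at 113.4 to 120.6 TPM in STING WT and 120.7 to 127.7 TPM in STING KO.

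The interferons that these receptors bind were at or near 0. Of 21 interferon genes on a ligand list, 17 were listed at 0 in all 12 libraries and 4 were above 0 in some library, with a highest value of 2.19 TPM. IFNE, an epithelial type I interferon, was the only one with enough signal to test, at 0.775 to 1.90 TPM, and it passed the threshold in no comparison. IFNL1, a ligand of IFNLR1 named here after its values were seen, was at 0.816, 0.865 and 0.659 TPM in unirradiated STING WT libraries and 1.35, 2.19 and 0.514 TPM in irradiated ones. IFNL1 was listed at 0 in all 6 STING KO libraries, and at these low values a 0 can be a failed estimate.

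Changes were tested with limma on log2(TPM + 1) over 15973 genes, and a gene was called when its Benjamini-Hochberg adjusted p was under 0.05. Fold changes on this scale understate the change of genes at low TPM. The comparison of STING KO with STING WT cells without radiation asks which transcripts differ between these cells at baseline. RNA came from cells with a single STING gRNA and cells with a single non-targeting gRNA. An effect of STING loss thus cannot be told apart from any other difference between them. Here 1 of the 9 members was called, IRF9, where 1.73% of all tested genes were called and 1.26% were called lower. The median log2 fold change was 0.05 over the members and -0.02 over all tested genes, and 2 members had an unadjusted p under 0.05, against 14.3% of all tested genes. In 4 of 9 members the 3 STING KO libraries lay wholly above (IFNAR1, JAK1) or wholly below (STAT2, IRF9) the 3 STING WT libraries, where 20.6% of all tested genes did so.

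The same comparison in irradiated cells called 2 of the 9 members, STAT2 and IRF9, where 3.59% of all tested genes were called and 2.66% were called lower. The STAT2 call was lost in 16 of 20 alternatives, which left IRF9 as the 1 member called. The median log2 fold change was 0.06 over the members and -0.02 over all tested genes. Unadjusted p-values were under 0.05 for 5 members and for 17.9% of all tested genes. For 7 of the 9 members the groups did not overlap, where this held for 24.1% of all tested genes. STING KO libraries were above STING WT libraries for IFNAR1, JAK1 and TYK2 and below them for IFNGR2, IFNLR1, STAT2 and IRF9.

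Among the receptor chains, neither type I chain passed the test. IFNAR1, which binds TYK2, was at 67.8, 68.1 and 64.9 TPM in unirradiated STING WT and 69.3, 69.1 and 69.8 TPM in unirradiated STING KO libraries. After radiation IFNAR1 was at 69.5, 69.2 and 68.3 TPM in STING WT and 74.1, 74.4 and 71.7 TPM in STING KO libraries. Every irradiated STING KO library was thus above every other library for IFNAR1. The difference between irradiated STING KO and STING WT cells was 6.37%, or 0.09 on the log2 scale (95% CI 0.0028 to 0.17, limma adjusted p = 0.263), and it did not pass the threshold. IFNAR2, the chain that binds JAK1 and STAT2, was at 17.2 to 21.4 TPM over the 12 libraries, with overlap in all 4 comparisons. Its log2 differences lay between -0.09 and 0.09, and the interval for the difference between STING KO and STING WT was -0.28 to 0.10 without radiation and -0.13 to 0.25 with it. The IFNAR2 values are uncertain because AP000295.1, a protein-coding gene on the same strand at 6.45 to 17.3 TPM, shares 2038 exon bases with it.

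The type II chains also passed no test. IFNGR1, the ligand-binding chain, was at 52.0 to 65.3 TPM over the 12 libraries, and its difference between STING KO and STING WT cells was 0.06 on the log2 scale without radiation (95% CI -0.11 to 0.23) and 0.12 with it (-0.05 to 0.29). IFNGR2, the chain that carries JAK2, was at 46.5, 46.5 and 63.6 TPM in unirradiated STING WT and 43.6, 42.3 and 71.0 TPM in unirradiated STING KO libraries. After radiation IFNGR2 was at 47.0, 50.04 and 47.1 TPM in STING WT and 40.2, 44.2 and 45.5 TPM in STING KO libraries. The libraries numbered 3 of both unirradiated groups thus stood above the other 10, and the interval of the unirradiated difference was -0.43 to 0.38 on the log2 scale. Without STING WT library 3 that difference was 0.12 and without STING KO library 3 it was -0.26, in place of -0.02 with all libraries. In irradiated cells, where the groups did not overlap, IFNGR2 was 9.85% lower in STING KO cells, a log2 difference of -0.15 (95% CI -0.55 to 0.26, limma adjusted p = 0.731). TMEM50B, on the opposite strand, shares 380 exon bases with IFNGR2, and the strand setting of the counting is not given in the sources used here.

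IFNLR1, the specific chain of the type III receptor, was at 3.54, 4.59 and 5.12 TPM in unirradiated STING WT and 4.58, 4.46 and 5.27 TPM in unirradiated STING KO libraries. With radiation it was at 5.31, 5.14 and 5.14 TPM in STING WT and 3.83, 4.71 and 4.29 TPM in STING KO libraries. The irradiated groups did not overlap, with STING KO 17.8% lower, but the log2 difference of -0.24 (95% CI -0.49 to 0.02) had a limma adjusted p of 0.326. The radiation effects on IFNLR1 had opposite signs in STING WT (0.20, 95% CI -0.05 to 0.46) and STING KO cells (-0.13, 95% CI -0.39 to 0.13), and the test of their difference did not pass (-0.34, limma adjusted p = 0.760).

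The kinases had slightly higher means in STING KO cells, without passing the test. JAK1, which serves all 3 receptor types, was at 117.2, 120.6 and 118.6 TPM in unirradiated STING WT and 122.0, 127.7 and 120.7 TPM in unirradiated STING KO libraries. In irradiated cells JAK1 was at 114.2, 117.6 and 113.4 TPM in STING WT and 122.6, 123.9 and 127.1 TPM in STING KO libraries. The STING KO libraries were above the STING WT libraries in both arms, by 3.91% and 8.22% of the mean, and the limma adjusted p-values were 0.578 and 0.149. TYK2, the partner of JAK1 on the type I and type III receptors, was at 42.9 to 45.2 TPM in unirradiated STING WT and 43.8 to 47.6 TPM in unirradiated STING KO libraries. With radiation TYK2 was at 42.9, 46.3 and 46.0 TPM in STING WT and 48.1, 49.0 and 51.4 TPM in STING KO libraries, a difference of 9.82% without overlap and with a limma adjusted p of 0.217. The ratio of JAK1 to TYK2 stayed between 2.47 and 2.81 in all 12 libraries. The upper 95% bounds of the irradiated log2 differences were 0.20 for JAK1 and 0.25 for TYK2.

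**Figure D2:**
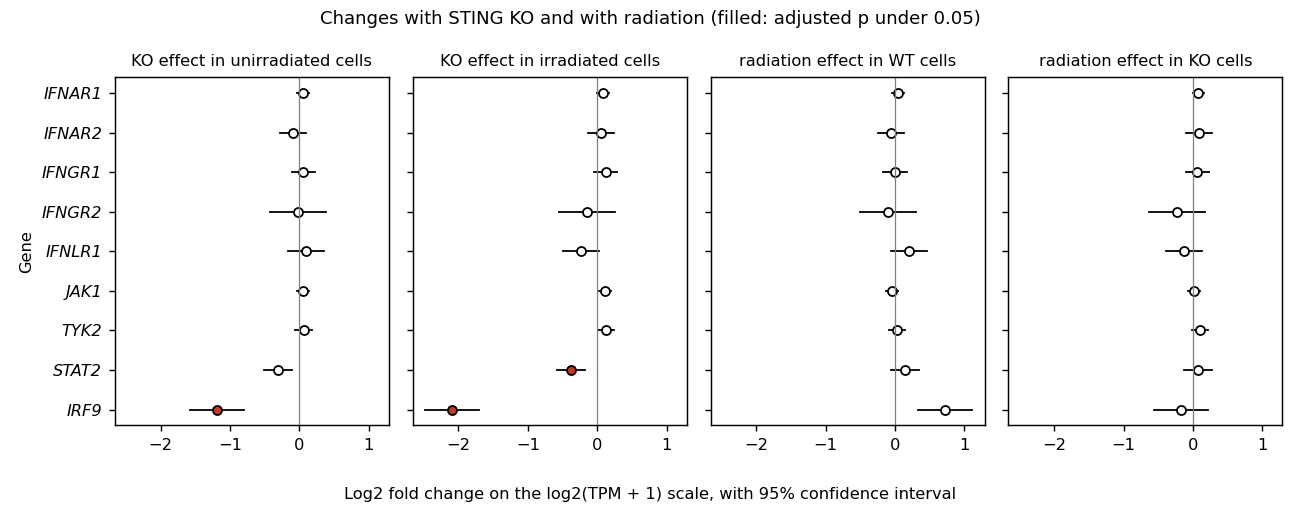
Log2 fold change of each member on the log2(TPM + 1) scale in 4 comparisons, with 95% confidence intervals from limma. Filled points passed an adjusted p of 0.05, which only IRF9 (-1.19 and -2.09) and STAT2 (-0.38, irradiated cells) did.

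STAT2 is the ISGF3 subunit that brings the transactivation domain. It was at 42.6, 48.2 and 41.6 TPM in unirradiated STING WT and 35.7, 31.7 and 39.0 TPM in unirradiated STING KO libraries. In irradiated cells it was at 45.2, 54.1 and 47.4 TPM in STING WT and 38.4, 37.3 and 36.1 TPM in STING KO libraries. All 6 STING KO libraries were below all 6 STING WT libraries. The unirradiated log2 difference of -0.31 (SE 0.09, 95% CI -0.51 to -0.11) did not pass with a limma adjusted p of 0.143, and the irradiated difference of -0.38 (SE 0.09, 95% CI -0.58 to -0.18) passed with 0.0484. That call was lost in 16 of 20 alternatives, with adjusted p-values from 0.0401 to 0.150, and among single libraries it was kept only without unirradiated STING WT library 2 or unirradiated STING KO library 2 or 3.

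IRF9 is the DNA-binding subunit that gives ISGF3 its preference for the ISRE. In unirradiated cells IRF9 was at 51.3, 54.3 and 40.1 TPM in STING WT and 20.2, 23.0 and 18.5 TPM in STING KO libraries. In irradiated cells IRF9 was at 85.5, 65.7 and 91.7 TPM in STING WT and 23.1, 16.4 and 15.4 TPM in STING KO libraries. The lowest STING WT library was above the highest STING KO library in both arms, and the STING WT libraries were higher with radiation than without it. The log2 difference between STING KO and STING WT cells was -1.19 (SE 0.18, 95% CI -1.58 to -0.80, limma adjusted p = 0.00574) without radiation and -2.09 (SE 0.18, 95% CI -2.48 to -1.70, limma adjusted p = 7.6e-05) with it. Both calls held in all 21 alternatives.

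The balance between STAT2 and IRF9 RNA differed between groups. The ratio of IRF9 to STAT2 within a library was 1.20, 1.13 and 0.962 in unirradiated STING WT and 0.567, 0.724 and 0.474 in unirradiated STING KO cells. After radiation it was 1.89, 1.21 and 1.93 in STING WT and 0.602, 0.440 and 0.428 in STING KO cells. IRF9 RNA was thus near or above STAT2 RNA in every STING WT library and below it in every STING KO library. The exact two-sided permutation p was 0.1 for STING KO against STING WT in both arms, again the smallest possible.

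A neighbouring gene bears on the IRF9 values. AL136295.5 is a protein-coding gene on the same strand (chr14:24151218-24167402, GRCh38) that spans IRF9 (chr14:24161053-24166565) and shares 1838 exon bases with it, so the division of reads between them is uncertain. AL136295.5 was at 10.9, 11.3 and 10.3 TPM in unirradiated STING WT and 5.17, 5.999 and 6.18 TPM in unirradiated STING KO libraries, and at 13.0, 11.7 and 9.99 TPM in irradiated STING WT and 4.37, 5.57 and 6.20 TPM in irradiated STING KO libraries. It was called lower in STING KO cells without radiation (-0.81, limma adjusted p = 0.00724) and with it (-0.98, limma adjusted p = 0.00142). With radiation in STING WT cells the log2 difference of AL136295.5 was 0.08 (95% CI -0.19 to 0.35, limma adjusted p = 0.797), beside 0.72 for IRF9. The sum of IRF9 and AL136295.5 was 50.4 to 65.6 TPM in unirradiated STING WT and 24.7 to 28.97 TPM in unirradiated STING KO libraries, and 77.4 to 101.7 and 21.6 to 27.5 TPM in the irradiated groups.

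**Figure D3:**
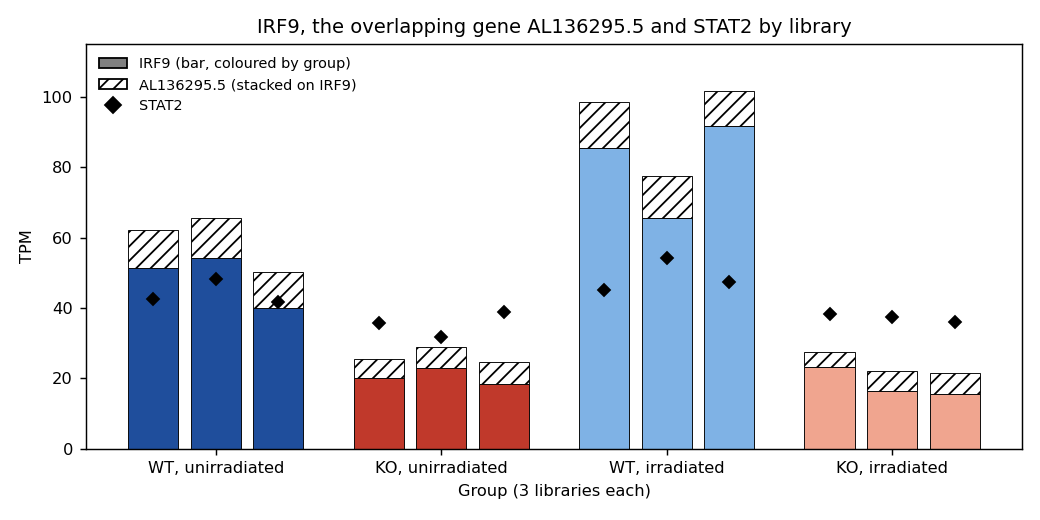
TPM by library for IRF9 (coloured bars), for AL136295.5 (hatched, stacked on IRF9) and for STAT2 (diamonds), with 3 libraries in each group. The IRF9 bars are 40.1 to 91.7 TPM in STING WT and 15.4 to 23.1 TPM in STING KO libraries. STAT2 is at 41.6 to 54.1 TPM in STING WT and 31.7 to 39.0 TPM in STING KO libraries.

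The comparison of irradiated with unirradiated cells asks what radiation did in each background. These comparisons use the same libraries as those above. In STING WT cells none of the 9 members was called by limma, where 3.74% of all tested genes were called, and 1 member had an unadjusted p under 0.05, against 18.2% of all tested genes. The groups did not overlap for 3 of 9 members, IFNAR1, IFNLR1 and IRF9, all higher with radiation, where 24.8% of all tested genes did not overlap. The IRF9 mean was 66.7% higher, at 80.9 ± 13.6 TPM against 48.6 ± 7.50 TPM (SD, n = 3). Its log2 difference of 0.72 (SE 0.18, 95% CI 0.33 to 1.11) had a limma adjusted p of 0.0509, just outside the threshold. It passed in 5 of 21 alternatives, among them without irradiated STING WT library 2 (0.86, adjusted p = 0.0484), without irradiated STING KO library 1 (adjusted p = 0.0345) and for the sum of IRF9 and AL136295.5 (0.63, adjusted p = 0.0335). STAT2 differed by 0.14 (95% CI -0.06 to 0.34, limma adjusted p = 0.457).

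In STING KO cells none of the 9 members was called by limma, where 3.69% of all tested genes were called, and none had an unadjusted p under 0.05, against 18.1% of all tested genes. The groups did not overlap for 2 of 9 members, IFNAR1 and TYK2, both higher with radiation, where 24.3% of all tested genes did not overlap. The median log2 difference of the members was 0.03 in STING WT and 0.06 in STING KO cells, and that of all tested genes was 0.02 in both. IRF9 was at 18.3 ± 4.17 TPM with radiation and 20.6 ± 2.26 TPM without it (SD, n = 3), a log2 difference of -0.17 (95% CI -0.56 to 0.22, limma adjusted p = 0.668). The STING KO libraries of IRF9 overlapped, unlike those of the STING WT cells.

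The difference between the radiation effects in STING KO and STING WT cells was tested directly, and none of the 9 members was called by limma, where 0.0188% of all tested genes were called. For IRF9 the difference was -0.90 on the log2 scale (SE 0.25, 95% CI -1.45 to -0.35), with an unadjusted p of 0.00447 and a limma adjusted p of 0.632 over all genes. IRF9 was the 1 member with an unadjusted p under 0.05 in this test, against 6.61% of all tested genes. For STAT2 the difference was -0.07 (95% CI -0.35 to 0.21, limma adjusted p = 0.95).

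The rest of the pathway was read from lists that hold no member. The shared chain and further kinases (IL10RB, JAK2 and JAK3) gave no call by limma in any comparison. For radiation, 1 of the 3 had an unadjusted p under 0.05 in each background, against 18.2% (STING WT) and 18.1% (STING KO) of all tested genes. JAK2, named after its values were seen, was at 11.9 to 15.0 TPM in all 12 libraries.

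Of 21 negative regulators of JAK and STAT signalling, 3 and 5 had an unadjusted p under 0.05 between STING KO and STING WT cells, without and with radiation. For all tested genes these shares were 14.3% and 17.9%. By limma 0 of the 21 were called without radiation and 1 was called lower with it, where 1.73% and 3.59% of all tested genes were called. The called gene was USP18 (-0.77, SE 0.11, limma adjusted p = 0.00456), which binds IFNAR2, restrains type I interferon signalling and is itself an ISGF3 target. USP18 was at 10.7, 11.5 and 10.5 TPM in irradiated STING WT and 6.47, 5.40 and 6.17 TPM in irradiated STING KO libraries. SOCS3, an inhibitor of cytokine receptor kinases, was called lower with radiation in STING WT cells (-0.33, limma adjusted p = 0.0362) and in STING KO cells (-0.42, limma adjusted p = 0.0129). The STING WT call of SOCS3 was lost in 12 of 20 alternatives (adjusted p from 0.0170 to 0.123), among them without any single library other than unirradiated STING KO library 1 and irradiated STING KO libraries 1 and 3. The STING KO call of SOCS3 was lost in 2 of 20 (adjusted p up to 0.0639), without unirradiated STING KO library 1 and with only the 6 libraries compared.

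Of 17 signalling partners and nuclear import factors, such as the importin KPNA5 and the coactivator EP300, none was called by limma in any comparison. By comparison, 1 to 4 of them had an unadjusted p under 0.05, against 6.61% to 18.2% of all tested genes. Of 6 class II cytokine receptors outside the interferon system, 3 could be tested and none was called or had an unadjusted p under 0.05. Of 26 other receptors that couple to Janus kinases, 15 could be tested. Between STING KO and STING WT cells, 1 was called lower without radiation and 2 with it. For all tested genes these shares were 1.26% and 2.66%. With radiation 1 was called higher in each background, where 3.74% and 3.69% of all tested genes were called. Unadjusted p-values were under 0.05 for 5, 7, 2 and 4 of the 15, against 14.3%, 17.9%, 18.2% and 18.1% of all tested genes. IL7R, the interleukin 7 receptor chain, was called lower in STING KO cells without radiation (-1.23, limma adjusted p = 2.1e-06) and with it (-1.27, limma adjusted p = 1.2e-06), and higher with radiation in STING WT (0.75) and STING KO cells (0.71). PRLR, the prolactin receptor, was called lower in irradiated STING KO cells (-0.97, limma adjusted p = 0.0274), a call lost in 7 of 19 alternatives (adjusted p up to 0.108), among them without irradiated STING WT library 1 or 2 or any irradiated STING KO library. PRLR was at low levels, with 2.45, 1.31 and 1.085 TPM in irradiated STING WT and 0.267, 0.268 and 0.379 TPM in irradiated STING KO libraries. Its log2 difference was -2.02 to -0.75 across the alternatives. The other 13 tested receptors of this list were not called.

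Genes that ISGF3 is known to activate were set beside its subunits. The list of 40 such genes was chosen with earlier results of these data known, and 38 of them are not members. Of these 38, 33 were called lower in STING KO cells without radiation and 36 with it, where 1.26% and 2.66% of all tested genes were called lower. Their median log2 differences were -1.72 and -2.04. IRF9 was 24th and 20th from the lowest of the 40 in these comparisons, and STAT2 was 38th and 40th. OASL and HERC5, the most reduced, differed by -6.16 and -5.19 without radiation and by -6.88 and -5.48 with it. With radiation in STING WT cells 11 of the 38 were called higher, where 3.74% of all tested genes were called in either direction. Their median was 0.39 over the 38, beside 0.72 for IRF9 and 0.14 for STAT2, and the largest differences were those of IFI27 (1.08) and MX1 (0.82). The IFI27 call was lost in 14 of 20 alternatives (adjusted p up to 0.152), among them without any single library except irradiated STING KO library 2. The MX1 call was lost in 5 of 20 (adjusted p up to 0.116), among them without unirradiated STING WT library 1 or any irradiated STING WT library. In STING KO cells 0 of the 38 were called with radiation by limma, at a median of -0.05, where 3.69% of all tested genes were called. Of all 40, 6 had an unadjusted p under 0.05, against 18.1% of all tested genes. IFI27 differed in STING KO cells by 1.05 (limma adjusted p = 0.0513), near its 1.08 in STING WT cells. The difference between the radiation effects was -0.03 for IFI27 (limma adjusted p = 0.993) and -0.51 for MX1 (limma adjusted p = 0.751). In the direct test of the difference between the radiation effects 0 of the 38 were called by limma, where 0.0188% of all tested genes were called. Of all 40, 22 had an unadjusted p under 0.05, against 6.61% of all tested genes, and the median was -0.47.

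**Figure D4:**
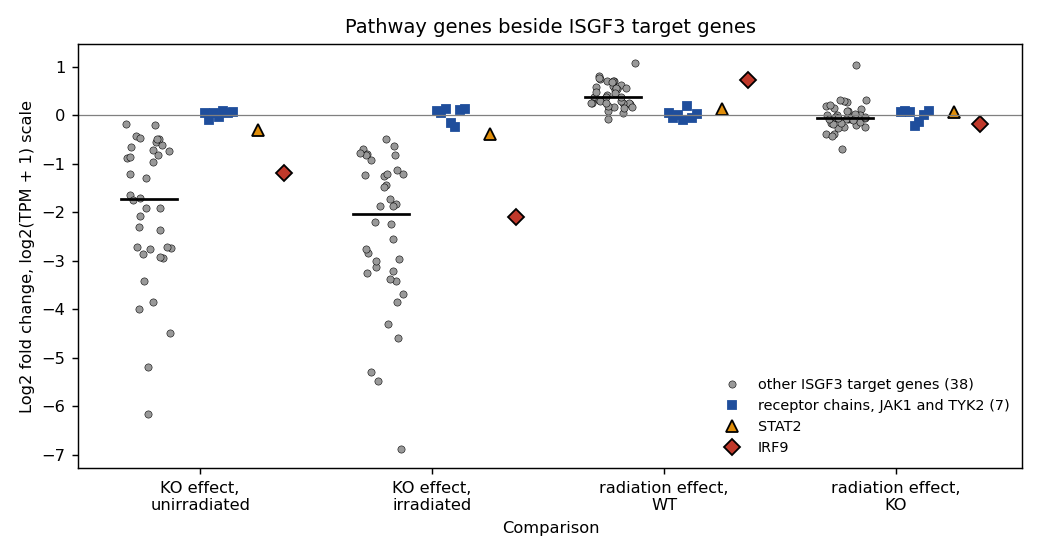
Log2 fold change of 38 other ISGF3 target genes (grey, bar at the median), of the 5 receptor chains with JAK1 and TYK2 (squares), of STAT2 (triangle) and of IRF9 (diamond) in 4 comparisons. IRF9 lies within the spread of the target genes in each comparison, while the receptor chains and kinases lie between -0.24 and 0.20.

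The genes whose profile was most like that of IRF9, by the root mean square difference of log2(TPM + 1) over the 12 libraries after centring on unirradiated STING WT cells, were VEGFC (0.23), PPM1K (0.25) and DHX58 (0.26). VEGFC, a lymphatic growth factor, was at 7.29, 8.67 and 8.29 TPM in unirradiated STING WT and 2.55, 2.52 and 2.78 TPM in unirradiated STING KO libraries, and at 12.2, 13.5 and 11.6 TPM in irradiated STING WT and 3.20, 2.55 and 2.16 TPM in irradiated STING KO libraries. DHX58, an RNA sensor, is on the ISGF3 target list. PPM1K, a mitochondrial phosphatase, was at 4.16, 4.61 and 2.895 TPM in unirradiated STING WT and 0.706, 0.982 and 1.34 TPM in unirradiated STING KO libraries. VEGFC, PPM1K and DHX58 averaged 6.44, 3.02 and 10.3 TPM over the 12 libraries. The likeness holds on the log2(TPM + 1) scale, which understates the change of genes at low TPM.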

How the data were processed

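RNA-Seq of polyadenylated RNA from 12 FaDu libraries was analysed. Per the labels and values, the authors deposited TPM per gene and library, each library summing to 1000000, with no scaling between libraries. HISAT2, StringTie, DESeq2 and build hg38 are named in the submitters' processing notes, and roles, versions, annotation and strand setting are not given in the sources used here. Table columns were assigned to groups by their names, NT2 as the non-targeting gRNA 2 control and A63 as STING KO.

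Genes with TPM of at least 1 in at least 3 libraries were kept, and log2(TPM + 1) was fitted with limma 3.58.1 (R 4.3.3) to the 4 group means (8 residual degrees of freedom, trended eBayes), with p-values adjusted over all tested genes. The script was tested on simulated data. Ratios within a library were compared by exact permutation tests. The members and gene lists were chosen with earlier results of these data known. Besides the members and TMEM173, genes named were those called on the ligand, kinase and negative regulator lists, the largest called changes of the other lists, genes overlapping a member, and the 3 genes most like IRF9. Uncalled genes named beyond this rule (IFNE, IFNL1, JAK2, JAK3, IL10RB, KPNA5 and EP300) were chosen after their values were seen or stand as examples of a list. Gene positions were from GENCODE release 29, promoters from RefSeq. The alternatives changed the pseudocount (0.1), the filter (none, or a mean TPM of 5 or more), the scaling (quantile, or median-of-ratios) and the eBayes prior (no trend). Others added a replicate block, fitted just the 6 libraries of a comparison, dropped 1 library at a time, or added overlapping genes to a member (chosen after seeing the data). Results for 1 further gene list are not reported here.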

Additional observations from a re-analysis of the deposited data

How the results depend on the processing

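Across alternatives, 855 of 896 log2 differences of the members kept their direction and side of the threshold. For most of them this meant staying uncalled. The only calls in the main fit were IRF9 in both arms and STAT2 in irradiated cells, between STING KO and STING WT cells. IRF9 was called lower in STING KO cells in all 21 alternatives, at -1.32 to -1.11 without radiation and -2.26 to -1.92 with it. In irradiated cells the number of members called fell from 2 to 1 (STAT2 lost) with eBayes without trend, quantile normalization, no filter, a pseudocount of 0.1, median-of-ratios factors or only the 6 libraries compared, and was 1 to 2 without single libraries. With the replicate block it was also 1, and the block, which changed no other call of a member, lowered the calls over all genes from 276 to 211, 573 to 378, 597 to 315 and 590 to 359 in the 4 comparisons and from 3 to 1 for the difference between the radiation effects. Same-numbered libraries did not deviate together (r from -0.06 to 0.064 across genes, and 5 of 18 correlated best with their own number), so the block was not part of the design. For radiation in STING WT cells the count rose from 0 to 1 (IRF9) with a mean TPM of at least 5, quantile normalization or overlapping genes added, and was 0 to 1 without single libraries. Fitting only the 6 libraries compared gave 103, 252, 166 and 195 calls over all genes. In 20 cases a difference changed sign, none of them called (lowest limma adjusted p 0.814, largest size 0.12): with median-of-ratios factors for IFNGR2 between unirradiated cells (6e-04) and JAK1 with radiation in STING KO cells (-0.0081), with overlapping genes added for IFNAR2 with radiation in STING KO cells (-0.024), and otherwise without single libraries. The ranges without single libraries between STING KO and STING WT were, unirradiated, -0.0043 to 0.11 for IFNGR1, -0.26 to 0.12 for IFNGR2 and -0.022 to 0.19 for IFNLR1, and irradiated, -0.031 to 0.12 for IFNAR2. With radiation they were, in STING WT cells, -0.11 to 0.038 for IFNAR2, -0.064 to 0.053 for IFNGR1 and -0.18 to 0.045 for IFNGR2, and in STING KO cells, -0.36 to 0.0094 for IFNGR2, -0.0033 to 0.037 for JAK1 and -0.0023 to 0.14 for STAT2. For the difference between the radiation effects they were -0.27 to 0.11 for IFNGR2 and -0.14 to 0.0042 for STAT2. The cause of these shifts was not tested. IFNLR1 has no value with a mean TPM of at least 5.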

Other observations

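IL10RB, the chain that pairs with IFNLR1 and that lies among the members on chromosome 21, was at 32.2 to 35.9 TPM in 9 libraries. It was at 63.9 TPM in irradiated STING WT library 3 and at 66.8 and 63.8 TPM in irradiated STING KO libraries 1 and 3. These libraries differ from those in which IFNGR2 stood high, the unirradiated libraries 3 of both backgrounds. TMEM50B, which overlaps IFNGR2, was at 16.4 to 24.8 TPM in 9 libraries and at 39.1, 37.1 and 42.9 TPM in unirradiated STING WT libraries 2 and 3 and irradiated STING KO library 3. IFNAR2, IFNAR1 and IFNGR2 lie within 249 kb of each other. These genes were named after their values were seen, and the cause of the steps was not tested.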
